A study of Homo sapiens with 2 samples.

Results

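ST6GAL1 and its relatives, the galactoside sialyltransferases, were described across 2 RNA-seq libraries of OVSAHO, a cell line of high-grade serous ovarian carcinoma. The members were 10 genes taken by symbol, ST6GAL1, ST6GAL2, ST3GAL1 to ST3GAL6, the sialidase NEU3 and the synthetase CMAS, and all 10 had a row among the 26255 genes of each table. The set was proposed because ST6GAL1 was among the largest decreases, so the members were chosen by a measured value, the FPKM ratio of ST6GAL1 between the 2 libraries, and that ratio is a description which supports nothing else. The perturbed culture carried stably raised SMARCA2 and an siRNA knockdown of SMARCA4, the alternative ATPases of the SWI/SNF chromatin remodelling complex, and the control culture was labelled wild type and received a negative-control siRNA. Both cultures had been in carboplatin, a platinum drug, at 25 µM for 2 days, so no untreated level is known. There was 1 library per group. No value below has an error between cultures, and a difference is one between these 2 libraries; whether the numbers in the sample titles stand for clones is not said in the labels.

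Sialyltransferases of the Golgi transfer sialic acid from CMP-sialic acid to the ends of glycan chains on glycoproteins and glycolipids. ST6GAL1 adds it in alpha-2,6 linkage to galactose, mostly on N-glycans, while the ST3GAL enzymes add it in alpha-2,3 linkage to galactose on N-glycans, O-glycans or gangliosides. In epithelial cancers ST6GAL1 is known for sialylating surface receptors such as the beta-1 integrin and for masking galactose from galectins.

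Levels are FPKM, fragments scaled to the length of the transcript and to 1000000 mapped fragments. Orders, sums and shares across genes below assume that this scaling makes genes comparable, which was not tested. The depth behind the FPKM, estimated from the smallest values, was about 8850000 fragments in the perturbed library and 9050000 in the control. The 95% intervals below come from the approximate fragment numbers and cover counting error alone. SMARCA4 stood at 4.49 FPKM in the perturbed library and 27.9 in the control, and SMARCA2 was 12.7-fold higher, so both went the way the series text says. Of 8 serous ovarian markers, the lineage factor PAX8 was at 42.1 and 21.9 FPKM and the keratin KRT8 at 462 and 488, perturbed first, while MUC16 was listed at 0 and 0.0608. WT1 was higher in the perturbed library (5.52 against 1.53 FPKM) and KRT7 lower (119 against 540).

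Markers of other cell types were low, apart from APOA1. The leukocyte genes PTPRC, MS4A1 and CD3E were listed at 0 in both libraries. Of 6 fibroblast genes 5 were listed at 0 in both, and the 4 endothelial genes summed to 0.430 and 0.367 FPKM, perturbed first. The 4 hepatocyte genes summed to 29.9 and 10.8 FPKM, nearly all of it APOA1 (29.9 and 10.6), and ALB was at 0.0552 and 0. The part of APOA1 and KRT7 in the values below was not tested.

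ST6GAL1 was at 1.08 FPKM in the perturbed library (interval 0.764 to 1.47) and at 51.7 FPKM in the control (49.5 to 54.1). The control level was 47.7-fold the perturbed one (35.1 to 68.0) and rested on about 39.4 and 1920 fragments, perturbed first. In the control 8.75% of all genes had a higher level than ST6GAL1, and in the perturbed library 42.3% did. With the pseudocount of 1 FPKM that was added to both libraries for all log2 ratios below, its ratio was -4.66. ST6GAL1 thus went from a gene of high level to one just above 1 FPKM, and the counting intervals of its 2 levels lay far apart. In bulk RNA, fewer cells with the transcript and less transcript per cell cannot be told apart. Among the 5946 genes that were above 0 in each library and reached 10 FPKM, ST6GAL1 had the third largest fold decrease, just behind PPP1R14A at 68.5-fold and ahead of MAL at 44.2-fold.

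**Figure D1:**
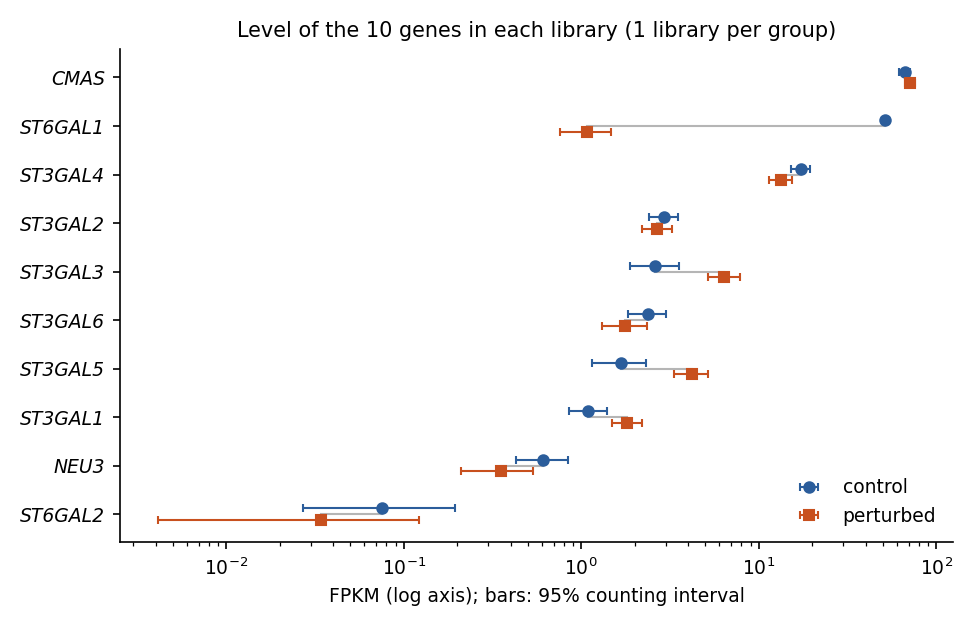
FPKM (log axis) of the 10 genes in the control library (circles) and the perturbed library (squares), with 95% counting intervals and 1 library per group. ST6GAL1 moves from 51.7 to 1.08 FPKM, whereas CMAS stays between 66.4 and 71.5 FPKM.

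ST6GAL2, the other alpha-2,6 galactoside enzyme, which is known for a narrow tissue range, stood at 0.0343 FPKM in the perturbed library and 0.0759 in the control. These values rest on about 2.02 and 4.57 fragments, and the interval of the control-over-perturbed fold ran from 0.400 to 25.7. No difference in ST6GAL2 was detectable at this depth, and its level in the perturbed library was below that of ST6GAL1.

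The 6 alpha-2,3 enzymes did not share a direction. A call of higher or lower needed 1 FPKM in at least 1 library and a log2 ratio of at least 1 or at most -1. Of all 11785 genes at that level, 7.85% were called higher and 7.61% lower. Of the 8 members at that level, ST3GAL3 was called higher and ST6GAL1 lower, and 6 were within the limits. This share holds the gene for which the set was proposed, and nothing is read from it. ST6GAL2 and NEU3 were below 1 FPKM in both libraries.

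ST3GAL3, which sialylates N-acetyllactosamine chains, stood at 6.42 FPKM in the perturbed library and 2.61 in the control. That is 2.46-fold higher (1.68 to 3.64), with a log2 ratio of 1.04, and the intervals of the 2 levels (5.21 to 7.86 and 1.87 to 3.57) did not overlap. ST3GAL3 has 27 transcripts matched to RefSeq, from 420 to 2602 bases long, and with the shortest of them the interval of the fold widened to 0.805 to 8.89. ST3GAL5, the GM3 synthase that makes the first ganglioside of the pathway, was at 4.21 and 1.68 FPKM, perturbed first. Its fold was as large as that of ST3GAL3, with an interval of 1.68 to 3.88, but its log2 ratio of 0.96 fell just short of the limit because the pseudocount weighs more on lower levels. Scaled to a common FPKM sum, centred on the median ratio or with a pseudocount of 0.1 FPKM, ST3GAL5 was past the limit too, at 1.09, 1.07 and 1.28. With a pseudocount of 5 FPKM neither gene was called, at 0.59 for ST3GAL3 and 0.46 for ST3GAL5.

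ST3GAL1, which caps core 1 O-glycans, stood at 1.82 FPKM in the perturbed library and 1.09 in the control, a fold of 1.67 (1.22 to 2.29). Its transcript is long, 6951 bases, and after removal of the trends that ratios showed with length, GC content and level, its log2 ratio of 0.43 fell to about 0. ST3GAL2, which also works on core 1 O-glycans and on gangliosides, was at 2.68 and 2.94 FPKM, with a fold of 0.913 (0.692 to 1.21). Its ratio was near 0 and changed sign with 2 of the 6 other scalings and pseudocounts.

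ST3GAL4, an enzyme of N-glycan and O-glycan chains, was the most abundant ST3GAL gene in each library, at 13.3 FPKM in the perturbed library and 17.2 in the control. The control level was 1.30-fold the perturbed one (1.07 to 1.58), well inside the limits for a call. ST3GAL6, with a like preference for N-acetyllactosamine ends, was at 1.77 and 2.37 FPKM, a fold of 0.747 whose interval (0.511 to 1.10) held 1. ST3GAL4 and ST3GAL6 both had ratios below 0 with each of the 6 other scalings and pseudocounts, between -0.37 and -0.15 for ST3GAL4 and between -0.40 and -0.12 for ST3GAL6.

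For 5 of the 8 members at 1 FPKM or more, the counting interval of the fold left out 1, with ST3GAL1, ST3GAL3 and ST3GAL5 higher and ST6GAL1 and ST3GAL4 lower. Among 10902 genes at that level with a known transcript length, 71.9% had such an interval, 32.2% higher and 39.6% lower, so an interval of this kind does not set the members apart.

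**Figure D2:**
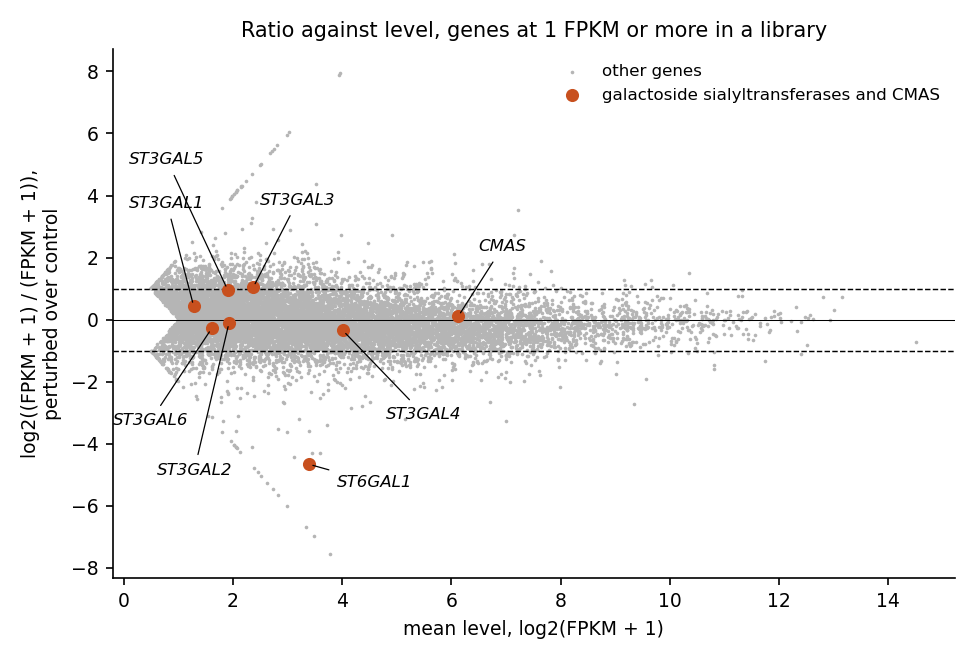
Log2 ratio of perturbed over control (y axis, pseudocount 1 FPKM) against mean log2 level (x axis) for the 11785 genes at 1 FPKM or more in a library; dashed lines mark the limits for a call. ST6GAL1 lies at -4.66, ST3GAL3 at 1.04 and ST3GAL5 at 0.96, and the other 5 members lie between -0.35 and 0.43.

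The make-up of the galactoside sialyltransferase transcripts differed between the libraries in ST6GAL1, by which the set was chosen, and within the alpha-2,3 genes. The alpha-2,6 genes summed to 51.8 FPKM in the control and 1.12 FPKM in the perturbed library, while the alpha-2,3 genes summed to 27.9 and 30.2 FPKM. The alpha-2,6 share of these transcripts was 65.0% in the control and 3.57% in the perturbed library. The sum over the 8 genes was 79.7 FPKM against 31.3. Within the alpha-2,3 genes, ST3GAL4 took 61.7% of the control sum and 44.0% of the perturbed sum, and ST3GAL3 with ST3GAL5 took 15.4% and 35.2%. Transcript shares are not enzyme activities, and no glycan was measured.

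In the control the order of levels was ST6GAL1, ST3GAL4, ST3GAL2, ST3GAL3, ST3GAL6, ST3GAL5, ST3GAL1 and ST6GAL2. The counting intervals of neighbours overlapped from ST3GAL2 through ST3GAL1, so the order of neighbours there is not settled at this depth. Genes further apart did separate, with ST3GAL2 (2.42 to 3.53 FPKM) above ST3GAL5 (1.15 to 2.33), and both ST3GAL2 and ST3GAL3 (1.87 to 3.57) above ST3GAL1 (0.850 to 1.39). In the perturbed library the order was ST3GAL4, ST3GAL3, ST3GAL5, ST3GAL2, ST3GAL1, ST3GAL6, ST6GAL1 and ST6GAL2, with overlapping neighbours from ST3GAL2 through ST6GAL1. ST3GAL3 and ST3GAL5 lay apart only barely there, with bounds that met at 5.21 FPKM. ST6GAL1 was the most abundant of all 20 sialyltransferase genes in the control, with 37.5% of their FPKM, and ranked 11 in the perturbed library, with 1.56%.

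**Figure D3:**
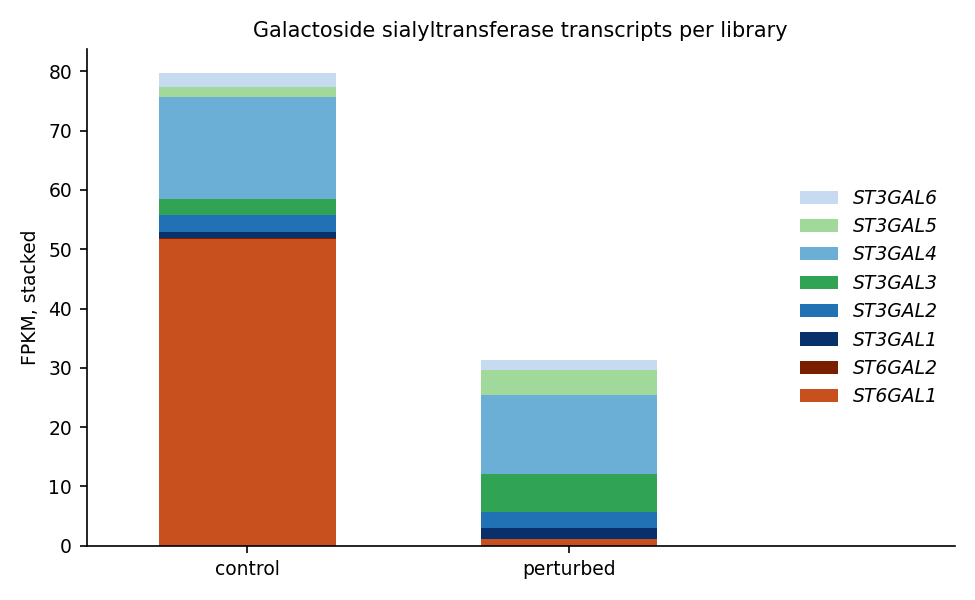
Stacked FPKM of the 8 galactoside sialyltransferase genes in the control and the perturbed library, 1 library each. The alpha-2,3 part measures 27.9 and 30.2 FPKM, and the alpha-2,6 part, nearly all ST6GAL1, 51.8 and 1.12 FPKM.

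CMAS, which makes the CMP-sialic acid that every sialyltransferase uses, stood at 71.5 FPKM in the perturbed library and 66.4 in the control, a fold of 1.08 (0.982 to 1.18). Its interval excluded a 1.5-fold difference in either direction as far as counting error goes. The log2 ratio of CMAS, 0.11, lay between 0.10 and 0.43 with the 6 other scalings and pseudocounts. It was 0.24 with the common FPKM sum and 0.43 with trends on length, GC content and level removed. NEU3, a sialidase of the plasma membrane that acts on gangliosides, was at 0.354 and 0.607 FPKM, on about 20.5 and 35.9 fragments. The interval of its fold, 0.312 to 1.01, held 1.

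The library kit does not mark strand, so reads of a gene and of an antisense partner cannot be told apart. ST3GAL4-AS1 was at 2.05 and 3.41 FPKM, perturbed first, and ST3GAL5-AS1 was listed at 0 in both. ST3GAL6-AS1 stood at 2.98 FPKM in the perturbed library and 0.584 in the control, on about 15 and 3.01 fragments. ST3GAL6 itself was lower in the perturbed library by its ratio, so the pair differed in sign; the rule by which reads over both genes were assigned is not stated.

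The promoters of the members with 1 start site in the RefSeq table (GRCh38.p14) are shown because they stand for the 3 outcomes seen here, a large decrease (ST6GAL1), an increase past the limit (ST3GAL3) and a level that hardly differed (CMAS). Each is the 250 bases before the annotated start, 5′ to 3′ on the plus strand, and capitals mark matches to the motifs named after them. The windows are chr3:186930276-186930525 for ST6GAL1, chr1:43707286-43707535 for ST3GAL3 and chr12:22045968-22046217 for CMAS; the deposited values were made on hg19, and no position was converted.
ST6GAL1: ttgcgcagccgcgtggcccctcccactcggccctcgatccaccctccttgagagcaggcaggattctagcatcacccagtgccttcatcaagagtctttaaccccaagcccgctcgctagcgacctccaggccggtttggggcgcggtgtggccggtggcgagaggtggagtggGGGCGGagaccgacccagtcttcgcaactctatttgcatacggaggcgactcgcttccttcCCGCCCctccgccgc
ST3GAL3: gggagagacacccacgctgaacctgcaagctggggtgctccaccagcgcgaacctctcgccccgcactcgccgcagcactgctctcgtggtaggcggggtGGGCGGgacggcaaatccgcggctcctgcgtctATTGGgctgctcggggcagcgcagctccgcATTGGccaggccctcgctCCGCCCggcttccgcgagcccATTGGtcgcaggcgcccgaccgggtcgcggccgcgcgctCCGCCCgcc
CMAS: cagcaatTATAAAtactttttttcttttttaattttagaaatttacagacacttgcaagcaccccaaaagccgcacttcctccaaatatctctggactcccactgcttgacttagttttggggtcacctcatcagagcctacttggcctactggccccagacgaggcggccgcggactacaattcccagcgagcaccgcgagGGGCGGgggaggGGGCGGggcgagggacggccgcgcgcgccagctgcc

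6 motifs were searched on both strands, the GC box GGGCGG, the CCAAT box CCAAT, the TATA box TATAAA, the AP-1 site TGANTCA, the SOX site ACAATG and the TEAD site GGAATG. The ST6GAL1 window held 2 GC boxes, at 76 to 71 and 15 to 10 bases before the start, and no match to the other motifs. The ST3GAL3 window held 3 GC boxes and 3 CCAAT boxes, all 3 of the latter as ATTGG. The CMAS window held 2 GC boxes and, at 243 to 238 bases before the start, a TATAAA. Over all 35116 windows of this length in the table, 42.6% held a GC box, 32% a CCAAT box, 10.7% a TATAAA, 6.57% an AP-1 site, 9.29% a SOX site and 11.9% a TEAD site.

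All 3 windows were richer in CpG than the median window, which held 11 CpG. ST6GAL1 had 22 CpG and 65.6% G and C, ST3GAL3 had 33 and 74.0%, and CMAS had 16 and 56.0%. The table held 8 of the 10 members, 5 of them with several starts, and not ST3GAL1 or ST3GAL2. ST6GAL1 is known to be transcribed from several promoters, and a gene-level FPKM does not say which start was used.

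Of the 5 listed genes on either side of ST6GAL1 on the chromosome, 5 of the 10 reached 1 FPKM in a library and none was called. Over all 11785 genes at that level, 7.85% were called higher and 7.61% lower, and nothing is read from so small a count. RFC4, RPL39L and RTP4 were each lower in the perturbed library, by less than the limit, with counting intervals that left out 1. Among 10902 genes at that level with a known transcript length, 39.6% had such an interval on the lower side and 32.2% on the higher. Nothing is read from these intervals either. RFC4, a subunit of the clamp loader of DNA replication, was at 186 and 219 FPKM, perturbed first, a control level 1.18-fold the perturbed one (1.11 to 1.25). RPL39L, a ribosomal protein paralog and the nearest listed gene downstream, was at 287 and 515 FPKM, where the control was 1.80-fold the perturbed level (1.68 to 1.92). RTP4 was at 5.02 and 7.91 FPKM, 1.58-fold (1.13 to 2.22). ADIPOQ, RTP1, MASP1 and LOC101929106 were listed at 0 in both libraries, ADIPOQ-AS1 was at 0 and 0.0681 FPKM, and the small nucleolar RNAs SNORA63 (14.8 and 29.2 FPKM) and SNORA4 (28.1 and 13.8 FPKM) are so short that a few fragments can make such values.

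The 5 genes with levels most like those of ST6GAL1, by distance over log2(FPKM + 1) in the 2 libraries, were the read-through locus TMEM189-UBE2V1 (distance 0.28), UCA1 (0.38), MAL (0.42), BEX5 (0.75) and MYEOV (0.93). With 2 points per gene this likeness says only that both levels were close. UCA1, a long non-coding RNA, was at 1.71 and 52.6 FPKM and MAL, a membrane proteolipid, at 0.886 and 39.2 FPKM, perturbed first. None of the 5 is a glycosyltransferase.

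The rest of the sialylation pathway was followed in 10 gene lists, chosen with earlier results of these data known. Of all 11785 genes at 1 FPKM or more in a library, 7.85% were called higher and 7.61% lower, with a median log2 ratio of -0.06. Each list holds few genes, and nothing is read from its calls against these shares. List medians below are over members at that level. Of the 12 other sialyltransferases, 4 were at that level, 1 was called lower and none higher, with a median of 0.36. The sign of this median turned with the filter, to -0.67 over genes at 5 FPKM in a library and -0.12 over genes at 1 FPKM in both. The called gene was ST6GALNAC4, which adds alpha-2,6 sialic acid to N-acetylgalactosamine of O-glycans and gangliosides, at 16.5 FPKM in the perturbed library and 39.9 in the control. ST6GALNAC1 and ST6GALNAC2, of the same family, were at 2.29 and 0.791 and at 4.98 and 2.32 FPKM, perturbed first. The alpha-2,8 sialyltransferase genes ST8SIA1 to ST8SIA6 stayed at or below 0.449 FPKM in both libraries.

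Of 13 genes of sialic acid synthesis, transport and turnover, 10 were at 1 FPKM or more, 1 was called lower and none higher, with a median of -0.24. NEU1, the lysosomal sialidase, was the one called, at 112 FPKM in the perturbed library and 251 in the control. With trends on length, GC and level removed its ratio was -0.86 and it was not called. NANS, the sialic acid synthase upstream of CMAS, was at 207 and 264 FPKM, and GNE, the enzyme that starts the pathway, at 1.41 and 1.99. SLC35A1, which carries CMP-sialic acid into the Golgi, was at 5.69 and 11.3 FPKM with a log2 ratio of -0.87, short of the limit.

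The acceptor chains on which ST6GAL1 acts are built by N-glycan branching and galactosylation enzymes. Of 17, 14 were at 1 FPKM or more, 3 were called higher and none lower, with a median of 0.11. This median was -0.50 over genes at 5 FPKM in a library and -0.23 over genes at 1 FPKM in both, and with a pseudocount of 5 FPKM none of the 17 was called. MGAT5, which adds the branch that carries long lactosamine chains, was at 4.15 FPKM against 0.709 in the control, 5.85-fold higher (4.34 to 8.05). Its call ended with the filter at 5 FPKM in a library or at 1 FPKM in both. MGAT4B, another branching enzyme, was at 59.5 against 27.8 FPKM and the mannosidase MAN1A2 at 5.53 against 2.19. With trends on length, GC and level removed, MAN1A2 was not called, at 0.81. MGAT1, which adds the first branch, lay the other way, at 82.5 against 161 FPKM, as did B4GALT4 (11.7 against 24.4) and MGAT2 (9.76 against 17.5), with log2 ratios of -0.95, -0.99 and -0.78, short of the limit. B4GALT1, a galactosyltransferase that supplies the acceptor galactose, was at 9.03 and 7.29 FPKM.

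Of 12 ganglioside genes, all at 1 FPKM or more, 2 were called higher and 1 lower, with a median of -0.15. The 2 higher genes act just before ST3GAL5. UGCG, the glucosylceramide synthase, was at 7.94 FPKM against 2.49 in the control, 3.18-fold higher (2.48 to 4.10), and B4GALT5, a lactosylceramide synthase, at 11.1 FPKM, 3.71-fold the control level (3.02 to 4.55). With a pseudocount of 5 FPKM UGCG was not called, at 0.79. With trends on length, GC and level removed, the log2 ratio of ST3GAL5 was 0.97.

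Of 14 O-glycan core genes, GALNT1 was called higher (5.62 against 1.97 FPKM) and GALNT2 lower (17.9 against 38.4), both enzymes that start O-glycans, with a median of -0.24 over the 9 at 1 FPKM or more. The call of GALNT2 ended with the common sum (-0.93), centred on the median (-0.95), with trends removed (-0.84) and with a pseudocount of 5 FPKM (-0.92), and that of GALNT1 with the last of these (0.61). Of 16 Lewis antigen and poly-N-acetyllactosamine genes, only 5 reached that level, and FUT11 (4.63 against 11.0 FPKM) and B3GNT8 (0.0675 against 2.24) were called lower. The B3GNT8 value in the perturbed library rests on about 1 fragment. The call of B3GNT8 ended with the filter at 5 FPKM in a library or at 1 FPKM in both. The median over the 5 genes was -0.99, and 0.00 over all 16 with no filter. With the common sum, centred on the median and with trends removed, the ratio of FUT11 was between -0.98 and -0.96 and it was not called, and with a pseudocount of 5 FPKM neither gene was. Of 12 Golgi tethering genes, which keep glycosyltransferases in place, COG5 was called lower (4.87 against 11.8 FPKM) and none higher, with a median of -0.39 over 11. With a pseudocount of 5 FPKM COG5 was not called (-0.77).

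**Figure D4:**
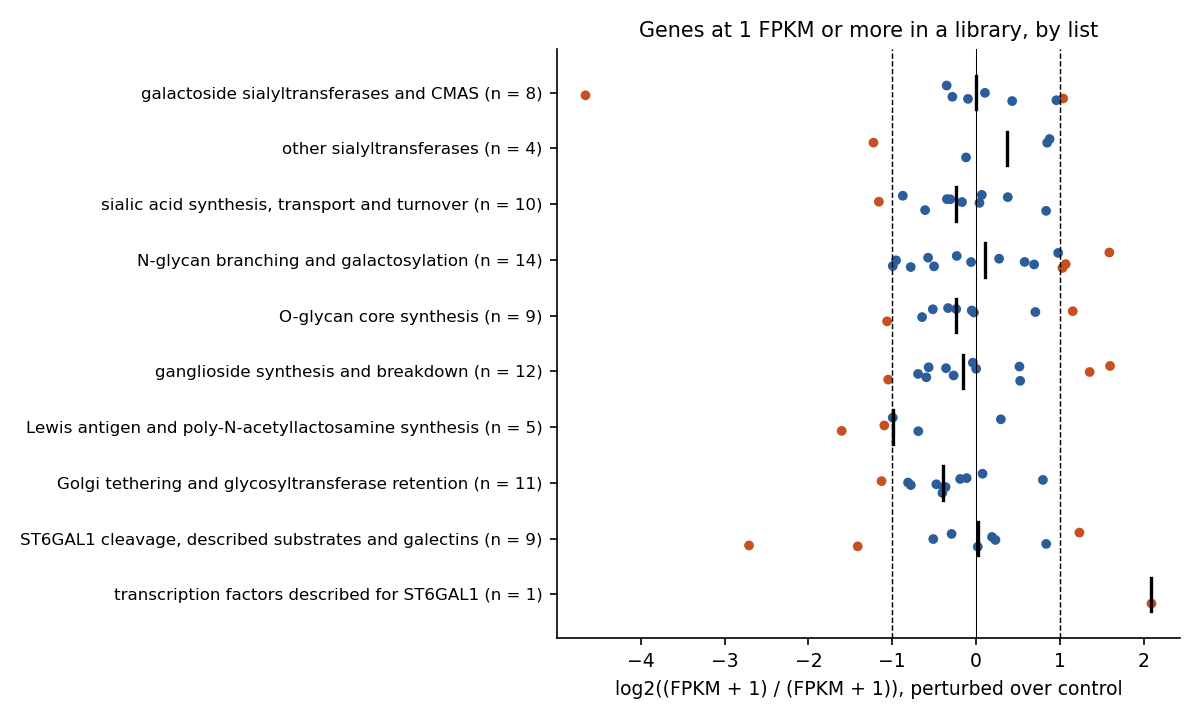
Log2 ratio of perturbed over control (x axis, pseudocount 1 FPKM) for each gene at 1 FPKM or more in a library, by list, with the list's median as a bar and the limits for a call as dashed lines; no sialic acid binding lectin reached that level. ST6GAL1 at -4.66 and LGALS1 at -2.71 lie at the low end, and SOX2 at 2.09 at the high end.

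Of 10 genes for proteases that cleave ST6GAL1, proteins described as its substrates, and galectins, 9 were at 1 FPKM or more, 1 was called higher and 2 lower, with a median of 0.02 that became -0.29 over genes at 5 FPKM in a library. SPPL3, an intramembrane protease that releases Golgi glycosyltransferases, was at 4.86 FPKM against 1.49 in the control, 3.26-fold higher, and BACE1, a protease that also cleaves ST6GAL1, at 3.71 against 1.64, within the limits. LGALS1, galectin-1, whose binding to galactose is blocked by alpha-2,6 sialic acid, was at 252 FPKM against 1655, where the control was 6.56-fold the perturbed level (6.10 to 7.08). LGALS8 was called lower as well, at 0.285 against 2.42 FPKM, and LGALS3 was at 63.8 and 78.3. With a pseudocount of 5 FPKM neither SPPL3 (0.60) nor LGALS8 (-0.49) was called. Both calls ended with the filter at 5 FPKM in a library, and that of LGALS8 also at 1 FPKM in both. The substrate ITGB1, the beta-1 integrin, was at 59.4 and 51.9 FPKM and the death receptor FAS at 5.49 and 4.53, perturbed first. The other listed substrates were TNFRSF1A, at 44.6 and 64.0 FPKM, MET, at 1.77 and 1.74, and EGFR, at 0.878 and 0.322, perturbed first. EGFR was below 1 FPKM in both libraries, and the other substrates lay within the limits. ST6GAL1 was the gene by which the set was chosen, so nothing is read from its contrast with them.

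SOX2, a transcription factor described as raising ST6GAL1 in ovarian cancer cells, was called higher, at 5.71 against 0.573 FPKM, 9.96-fold higher (5.50 to 19.8), on about 117 and 12 fragments. With a pseudocount of 5 FPKM its ratio was 0.94, short of the limit, and its call ended with the filter at 1 FPKM in both libraries. In these 2 libraries the levels of SOX2 and ST6GAL1 went in opposite directions. Of 15 sialic acid binding lectins, which sit mostly on leukocytes and endothelium, none reached 1 FPKM and 11 were listed at 0 in both libraries. The most abundant were MAG, at 0.102 and 0.199 FPKM, and CD33, at 0 and 0.122.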

How the data were processed

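RNA-seq of 1 perturbed and 1 control OVSAHO culture was used, grouped by the genotype labels. Per the labels' protocols, cDNA was made with a SMART-Seq kit, which does not mark strand, and libraries with Nextera XT. The deposited values are FPKM, 1 per gene symbol, per the file headers. Per the submitters' processing notes, build hg19 and Cuffdiff 2.2.1, TopHat2 2.1.1, SAMtools 0.1.18 and Bowtie2 2.2.8 were used. The annotation, the filters and whether libraries were scaled to each other are not stated in the sources used here.

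Ratios are log2((FPKM + 1) / (FPKM + 1)), perturbed over control; folds are of FPKM as deposited. Depth was found from the steps of low values over 11323 genes with a single transcript matched to RefSeq (GENCODE 29), with lengths shortened by 200 bases, and the step was tested on simulated data. Fragment numbers use the median transcript length; fold intervals are exact binomial (Clopper-Pearson), level intervals exact Poisson, at 95%. PCR copies are not independent molecules, so both are too narrow. Python 3.11.15, SciPy 1.17.1 and pandas 2.3.3 were used.

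With 1 library per group no test was made and no p-value is given. Members and lists were chosen with earlier results of these data known. Named were all members, SMARCA2 and SMARCA4, every list gene called or the 2 most abundant where none was, the 5 genes most like ST6GAL1 and the 5 neighbours on either side in the RefSeq gene table. Other genes of a list are given where its description needs them and were chosen after their values were seen. Some list genes are not reported here. Alternatives were other pseudocounts, scalings, filters and fold limits, and, chosen after seeing the data, removal of trends (cubic in length, GC content and level) and other transcript lengths.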

Additional observations from a re-analysis of the deposited data

How the results depend on the processing

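ST6GAL1 was called lower under every alternative run. Its log2 ratio was -5.45 with a pseudocount of 0.1 FPKM and -3.22 with 5 FPKM. The set was proposed for the size of this decrease, so nothing is read from the call being kept. Members called higher numbered 2 at a pseudocount of 0.1 FPKM, after scaling to a sum of 1000000, when centred on the median ratio and at 1.5-fold, when ST3GAL5 joined ST3GAL3, and 0 with a pseudocount of 5 FPKM or at 4-fold.

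Over all genes, 925 were called higher and 897 lower. Higher genes numbered 1630 with a pseudocount of 0.1 FPKM, 546 at 5 FPKM in a library and 557 at 1 FPKM in both. Higher and lower genes numbered 219 and 380 with a pseudocount of 5 FPKM, 71 and 84 at 4-fold, and 2253 and 2505 at 1.5-fold. The share of higher calls went from 50.8% to 64.7% with the common sum, 64.8% centred on the median and 36.6% with a pseudocount of 5 FPKM. The median ratio of -0.0587 became 0.0758 with the common sum, 0.0544 when centred and -0.17 at 5 FPKM in a library.

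Over all 11785 genes at 1 FPKM or more in a library, 7.85% were called higher and 7.61% lower. Nothing is read from the list counts set beside these shares. Over the 10 lists together, 8 genes were called higher and 9 lower, with a median of -0.23. Higher calls numbered 16 with a pseudocount of 0.1 FPKM, and higher and lower calls 1 and 3 with 5 FPKM, 1 and 1 at 4-fold and 16 and 21 at 1.5-fold; lower calls numbered 5 with trends removed. The median was -0.11 with a pseudocount of 5 FPKM, -0.0503 with the common sum, -0.12 centred on the median, 0.00 with no filter, -0.36 at 5 FPKM in a library and -0.11 with trends removed. Beyond what follows from fewer genes or another limit, the cause was not tested. No paired analysis was possible because each group has 1 library. Depth limits ST6GAL2 and NEU3 most.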
